A study of Mus musculus with 8 samples.

Results

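The Hippo pathway and its partners in mechanosensing were examined as 10 genes, Yap1, Wwtr1, Tead1, Tead2, Tead3, Tead4, Ccn1, Ccn2, Ankrd1 and Piezo1, out of 18193 genes on the array. Their 19 probe sets, of 45037 that are not controls, were those annotated to one of these symbols and to no other. Expression was measured in mouse skeletal stem cells (SSCs, self-renewing cells from which bone, cartilage and stroma arise, 4 arrays) and in bone-cartilage-stromal progenitors (BCSPs, the cells downstream of them, 4 arrays). Both populations came from femoral fracture calluses of male C57/Bl6 mice aged 10 to 12 weeks, whose pinned bones had been broken through both cortices, and both were sorted without culture as CD45-Ter119-Tie2-CD51+6C3-Thy1- cells. SSCs were in addition CD200+CD105- and BCSPs CD105+. The labels give day 7 after fracture and 10000 cells per population and experiment, while the methods of the study give a later day. Each of experiments 1 to 4 gave 1 array of each population, and the legend of the study speaks of different mice. All 8 arrays come from fractured bone, so the fracture itself is not compared.

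The Hippo pathway is a kinase cascade in which Mst kinases activate Lats kinases, which in turn phosphorylate the coactivators Yap and Taz and keep them out of the nucleus. When the cascade is quiet or the cell is under tension, Yap and Taz enter the nucleus, bind DNA through Tead transcription factors and raise genes such as Ccn1, Ccn2 and Ankrd1. Control of Yap and Taz lies largely in the protein, so their mRNA does not report their activity. In skeletal cells the pathway is known for linking matrix stiffness and load to growth and to the choice between cartilage and bone.

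The deposited value is an activity score of each probe set, from about -100 (inactive) to +100 (active), set against the range of that probe set in a large collection of public mouse arrays, with 0 as its threshold. Since the score levels off at both ends and is not on a log scale, differences are given in points. It places a gene within its own range and does not rank amounts of mRNA between genes. Array medians lay between -34.2 and -24.8, and 29.0% to 31.0% of probe sets scored above 0 on each array. The number of arrays limits the precision. Marker genes were read by their probe set of highest mean score. Of the genes of the sort markers, Cd200 and Itgav were above 0 on all 8 arrays and Ptprc, Tek, Thy1 and Enpep on none. Itgav had 5 probe sets, of which 1 was above 0 on all 8 arrays and 3 on none. Eng, which encodes CD105, was lower on every SSC array (at most -29.4) than on any BCSP array (at least -1.02). All 5 measured genes of cartilage and bone cells (Sox9, Col2a1, Acan, Sp7 and Col1a1) were above 0 on all 8 arrays. None of 8 endothelial, 8 skeletal muscle or 8 macrophage and neutrophil genes was above 0 on any array, and of 6 genes of smooth muscle cells and pericytes only Cspg4, which chondrocytes also express, was above 0 on all 8.

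Of the 10 genes, 7 were above 0 on all 8 arrays by their lead probe set, the one of highest mean score, against 25.0% of all genes read the same way. These were Yap1, Wwtr1, Tead1, Tead3, Ccn1, Ccn2 and Piezo1. Tead2 and Ankrd1 were above 0 on no array, as were 43.5% of all genes, and Tead4 was above 0 on 4 arrays. Over single probe sets, 13 of 19 were above 0 on every array (16.1% of all probe sets) and 5 of 19 on none (49.5%). The median of the 10 mean scores was 58.2, and that of all genes -18.4. The 95th percentile of 55 probe sets of genes taken as silent in these cells lay below 0 on every array (-19.8 to -4.84). Used in place of 0, it could only raise the count, which stayed at 7. Of 37 such genes by lead probe set, 4 were above 0 on some arrays.

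**Figure D1:**
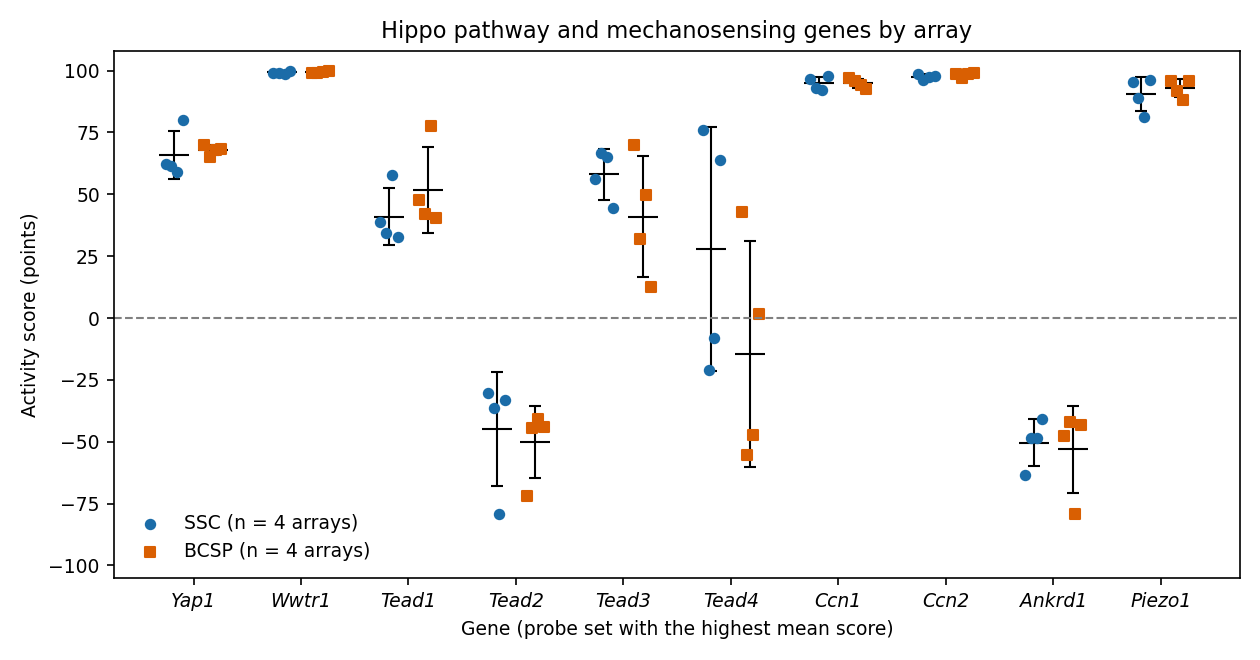
Activity score (points, vertical axis) of the lead probe set of each of the 10 genes on 4 SSC arrays (circles) and 4 BCSP arrays (squares). Horizontal bars are means, error bars SDs, and a dashed line is drawn at the threshold, 0; Wwtr1 lies at 98.7 or above on every array, Ankrd1 and Tead2 lie below 0 on every array, and Tead4 spreads from -55.5 to 75.9.

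The genes of both coactivators scored above 0 on all 8 arrays, with Wwtr1 at the top of its range. Wwtr1 encodes Taz, and its lead probe set scored 99.1, 99.2, 98.7 and 99.98 on the SSC arrays of experiments 1 to 4. On the BCSP arrays it scored 99.2, 99.1, 99.5 and 99.98. The arrays of the populations interleave within 1.32 points, close to the limit of the score, so that a difference could not have shown there. Its other probe sets ranged from 83.2 to 94.5 and from 86.2 to 97.6 over the 8 arrays and likewise overlapped between the populations. Yap1, which encodes Yap, scored 62.2, 61.5, 59.1 and 80.1 on the SSC arrays by its lead probe set. On the BCSP arrays it scored 69.8, 65.2, 68.0 and 68.3. The SSC array of experiment 4 stood above all others, and the other 3 SSC arrays lay below every BCSP array. With differences taken as SSC minus BCSP, that of -2.07 points (95% confidence interval -14.4 to 10.3) did not pass limma (adjusted p = 1). It turned to 0.146 points without the SSC array of experiment 3. The second Yap1 probe set was also above 0 on all 8 arrays, at 15.1 to 39.4.

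The 4 Tead genes, which encode the DNA-binding partners of Yap and Taz, did not share a level. By the lead probe set, Tead1 and Tead3 were active on all 8 arrays, Tead2 on none and Tead4 on 4.

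Tead1 scored 38.8, 34.3, 57.9 and 32.6 on the SSC arrays of experiments 1 to 4 by its lead probe set. On the BCSP arrays it scored 47.7, 41.9, 77.5 and 40.2. The populations overlap, but the SSC array was the lower in each experiment, by -19.6 to -7.53 points. The second Tead1 probe set, 1423434_at, was below 0 on every array, at -72.5, -74.1, -75.4 and -50.4 in SSCs. In BCSPs it scored -36.8, -42.7, -13.9 and -27.4. Here every SSC array lay below every BCSP array. This was so for 1 of the 19 probe sets and for 0.773% of all probe sets, and the reverse, every SSC array above every BCSP array, for 0 of the 19 and for 0.653% of all.

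The difference of the second Tead1 probe set was -37.9 points (95% confidence interval -61.7 to -14.0 from limma). The SSC mean was -68.1 ± 11.9 and the BCSP mean -30.2 ± 12.6 (SD, n = 4 each). This probe set was singled out because its populations do not overlap, so an exact test over the 70 ways to permute the arrays could return only its smallest p, 0.0286, and adds nothing to that description. Over all probe sets the difference did not pass limma (adjusted p = 1, unadjusted p = 0.00564), where 1.22% of all probe sets had an unadjusted p under 0.05 in this direction. The lead probe set differed by -10.9 points (95% confidence interval -34.3 to 12.5), and by -2.37 points without the BCSP array of experiment 3. Both probe sets of Tead1 were thus lower in SSCs in 4 of 4 experiments, as were 3 of the 19 probe sets and 7.24% of all probe sets. They disagree on whether the gene is active, a split that 15.4% of the 9010 genes with several probe sets showed between a probe set above 0 on all 8 arrays and one above 0 on none. The 8 endothelial genes had array medians of -84.9 to -75.7 in SSCs and -78.4 to -37.2 in BCSPs. Of these genes 6 had the lower mean in SSCs, 3 of them with an unadjusted p under 0.05 by limma and 0 with an adjusted one. They were Robo4 (-83.2 in SSCs and -43.6 in BCSPs, not overlapping), Cldn5 (-92.6 and -58.7) and Emcn (-89.9 and -57.2), each lower in SSCs in 4 of 4 experiments. The means of Pecam1 (-79.4 and -82.7) and Cdh5 (-25.3 and -54.0) were higher in SSCs. None of the 8 was above 0 on any array, and the part of these genes in the Tead1 difference was not tested.

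Tead3 scored 56.3, 66.7, 64.9 and 44.3 on the SSC arrays. The BCSP arrays gave 70.01, 31.9, 49.6 and 12.5. It was above 0 on all 8 arrays, and the populations overlap. The BCSP array of experiment 1 was the highest of the 8. That of experiment 3 (49.6) lay above the SSC array of experiment 4 (44.3). In experiments 2 to 4 the SSC array was higher, by 15.3 to 34.8 points. The mean difference of 17.1 points (95% confidence interval -10.2 to 44.3) did not pass limma (adjusted p = 1), and was 7.54 points without the BCSP array of experiment 4.

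Tead2 scored -30.2, -36.4, -79.2 and -33.2 on the SSC arrays. Its BCSP scores were -71.9, -44.4, -40.6 and -44.1. The lowest array of each population came from a different experiment, and the difference of 5.49 points changed sign without the BCSP array of experiment 1 (-1.72 points). No array exceeded the 95th percentile of the silent genes.

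Tead4 had the widest range of the 10 genes, 131 points by its lead probe set, 1460683_at. It scored 75.9, -20.9, -8.16 and 64.0 on the SSC arrays of experiments 1 to 4. Its BCSP scores were 42.8, -55.5, -47.2 and 1.75. The arrays of experiments 1 and 4 were above 0 in both populations and those of experiments 2 and 3 below 0 in both. The SSC array was higher in each of the 4 experiments, by 33.1, 34.6, 39.0 and 62.2 points. This held for 1 of the 19 probe sets and for 5.43% of all probe sets.

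Without a block the Tead4 difference of 42.3 points had a 95% confidence interval of -23.2 to 107.7, and the means were 27.7 ± 49.3 for SSCs and -14.5 ± 45.8 for BCSPs (SD, n = 4 each). With the experiment as a block the interval narrowed to 18.1 to 66.4. Neither fit passed limma over all probe sets (adjusted p = 1 and adjusted p = 0.933 from limma with the block, where the unadjusted p was 0.00512). At an unadjusted p under 0.05 the fit with the block held 2.30% of all probe sets as higher in SSCs. The test between experiments gave an unadjusted p = 0.00107 (limma, adjusted p = 0.0567). The other Tead4 probe set, 1426337_a_at, was below 0 on every array, at -60.6 to -9.03. Its differences by experiment were 0.260, 0.540, -34.3 and 5.86 points, so that the SSC array was higher in 3 of 4 experiments and the mean of -6.91 points rested on experiment 3.

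The genes whose lead probe sets followed that of Tead4 most closely over the 8 arrays were Csf1r (Pearson r = 0.971), B230311B06Rik (0.961), Kcnv2 (0.959), Ccdc51 (0.952) and Cd2bp2 (0.950), of 18192 searched. The arrays come in pairs from 4 experiments, and so many genes were searched that values this high are a description only. Csf1r, a macrophage marker, was below 0 on every array, at -69.8 to -37.8. Of 8 macrophage and neutrophil genes 0 were above 0 on any array, with array medians of -60.4 to -43.7 in SSCs and -73.4 to -49.5 in BCSPs. Their part in the Tead4 scores was not tested.

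**Figure D2:**
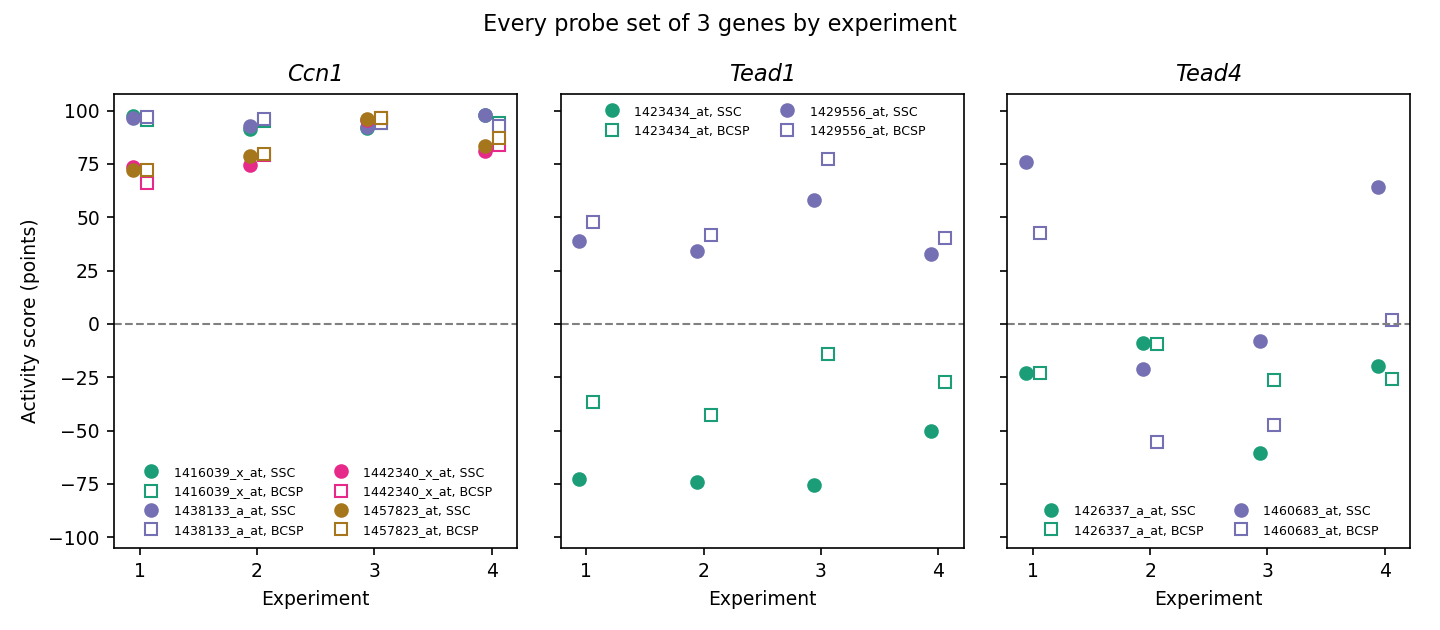
Activity score (points, vertical axis) of every probe set of Ccn1, Tead1 and Tead4 by experiment (horizontal axis). Filled circles are SSC arrays, open squares BCSP arrays, and colours mark probe sets; both Tead1 probe sets lie lower in SSCs in all 4 experiments, and the 1460683_at scores of Tead4 are above 0 only in experiments 1 and 4.

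The 3 target genes of Yap and Taz fell into 2 classes, with Ccn1 and Ccn2 near the top of their range and Ankrd1 in the lower part of its own. Ccn2, which encodes a secreted matricellular protein long known as connective tissue growth factor, scored 98.7, 96.2, 97.5 and 97.8 on the SSC arrays. The BCSP arrays gave 98.7, 96.9, 98.8 and 98.9. All 8 arrays lay within 2.72 points and the populations overlap. The difference was -0.768 points (95% confidence interval -4.67 to 3.14), and the score was close to its limit.

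Ccn1, a matricellular protein of the same family, had 4 probe sets, all above 0 on all 8 arrays. The lead probe set scored 96.4, 92.9, 92.2 and 97.9 on the SSC arrays. In BCSPs it scored 96.8, 95.8, 94.0 and 92.5. The populations did not separate (difference 0.0450 points, 95% confidence interval -4.98 to 5.07). The probe set 1416039_x_at ran close to it, at 91.5 to 97.9.

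The other pair of Ccn1 probe sets ranged more widely between experiments, and in the opposite direction between experiments 1 and 3. The lead probe set had means of 96.6 in experiment 1 and 93.1 in experiment 3. Those of 1416039_x_at were 96.6 and 92.9. The probe set 1457823_at scored 71.9, 78.5, 96.2 and 83.5 on the SSC arrays of experiments 1 to 4. On the BCSP arrays it scored 72.3, 79.6, 96.7 and 87.1. The SSC array was the lower in 4 of 4 experiments, by -3.64 to -0.360 points, while experiment means ran from 72.1 in experiment 1 to 96.4 in experiment 3. It was the only one of the 19 probe sets that passed the limma test between experiments (adjusted p = 0.0476), as did 0.995% of all probe sets. The call was lost without the variance trend and without any single experiment, while 2 of the 19 passed after quantile normalization, 3 after centring or on inverse normal scores, and 4 with the filter on low scores. The probe set 1442340_x_at had means of 69.9 in experiment 1 and 96.0 in experiment 3 (limma, adjusted p = 0.0669). Control probe sets at both ends of the actin transcript also differed by experiment, with the 3′ score above the 5′ score by 59.6 and 64.9 points on the arrays of experiment 3 and by 23.1 to 44.2 points on the others. For Gapdh the same difference did not set experiment 3 apart, at 54.7 and 49.1 points there, 53.9 and 71.9 in experiment 4 and 21.3 to 44.2 in experiments 1 and 2. The part of this in the Ccn1 scores was not tested.

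Ccn1 is also an early response gene, induced within minutes by growth factors and by handling of cells. All 12 early response genes of a list with Fos, Egr1 and Dusp1 were above 0 on all 8 arrays, as were 25.0% of all genes. Their median was 86.0, with Fos at 97.1 or above. Their part in the Ccn1 score was not tested.

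Ankrd1, which encodes a nuclear ankyrin repeat protein of heart and stressed muscle, scored -63.5, -48.7, -48.5 and -41.0 on the SSC arrays by its lead probe set. In BCSPs it scored -47.7, -41.9, -79.3 and -43.3. The other probe set lay between -90.3 and -36.9. Both were below 0, and below the 95th percentile of the silent genes, on all 8 arrays. The difference of 2.60 points (95% confidence interval -22.5 to 27.7) had no stable sign, since the other probe set gave -3.70 points. Skeletal muscle genes were low too, with the highest score of the 8 genes on any array at -1.17, for Tnnt3.

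Because Ccn1 scored near the top of its range and Ankrd1 below 0, the 250 bases before the start of each gene are shown, from RefSeq on build GRCm38.p6 and read along the gene. Capitals mark GGAATG, the core of the DNA element that Tead proteins bind, or its reverse complement. The Ccn1 window is chr3:145649986-145650235 and that of Ankrd1 chr19:36119845-36120094, both on the minus strand.
Ccn1: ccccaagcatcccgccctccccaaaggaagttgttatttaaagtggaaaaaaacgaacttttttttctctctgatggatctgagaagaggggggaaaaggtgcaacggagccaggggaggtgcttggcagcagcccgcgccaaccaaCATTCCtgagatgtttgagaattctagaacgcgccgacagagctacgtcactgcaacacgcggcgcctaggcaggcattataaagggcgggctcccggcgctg
Ankrd1: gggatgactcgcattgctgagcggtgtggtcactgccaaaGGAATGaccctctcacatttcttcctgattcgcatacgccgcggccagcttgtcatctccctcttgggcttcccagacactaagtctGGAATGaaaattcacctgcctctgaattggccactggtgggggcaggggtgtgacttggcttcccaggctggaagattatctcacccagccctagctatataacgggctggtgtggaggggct

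The Ccn1 window held 1 match, on the reverse strand, whose first base lies 103 bases before the start. The Ankrd1 window held 2, on the forward strand, 210 and 123 bases before the start. The inactive gene thus had more matches than the active one, and the letters did not sort the pair by score. On both strands GGAATG was found in 12.6% of 32851 RefSeq promoter windows of this length. RefSeq windows were matched for 7 of the 10 genes. They came to 10 windows, of which 7 held the element, and the Wwtr1 windows overlap and share their site. By gene, the element was found for 5 of the 7, Yap1, Wwtr1, Tead3, Ccn1 and Ankrd1. TATAAA was found 25 bases before the start of Ccn1 and 24 before that of Piezo1, and in 12.4% of all windows on either strand. Neither the AP-1 element TGANTCA (6.75% of windows) nor the CArG box of Srf (1.47%) was found in a window of the 7 genes.

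Piezo1 encodes a stretch-gated cation channel of the plasma membrane, through which skeletal cells sense load. It scored 95.2, 89.0, 81.2 and 96.2 on the SSC arrays. The BCSP arrays gave 95.7, 91.9, 88.2 and 95.8. It was active on all 8 arrays, and experiment 3 was lowest in both populations, at a mean of 84.7 against 90.4 to 96.0 in the others. The difference between experiments did not pass limma (adjusted p = 0.115). The difference between populations was -2.54 points (95% confidence interval -10.8 to 5.76), and it turned to 0.527 points without the SSC array of experiment 3.

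Between the populations, none of the 19 probe sets passed limma over all probe sets, in either direction, and 0.00% of the 45037 passed. At an unadjusted p under 0.05, 1 of the 19 was higher in BCSPs, the second Tead1 probe set, and 0 in SSCs, where 1.18% of all probe sets were. With the experiment as a block, 1 was higher in each direction, Tead4 by 1460683_at in SSCs and Tead1 by 1423434_at in BCSPs. In that fit 2.74% of all probe sets had an unadjusted p under 0.05 toward BCSPs. For the lead probe sets of Wwtr1, Ccn1, Ccn2 and Piezo1 the intervals without the block lay within -10.8 to 5.76 points, and that of Ankrd1 spanned -22.5 to 27.7 points. Other Ccn1 probe sets had intervals of -15.8 to 15.5 (1442340_x_at), -15.7 to 12.9 (1457823_at) and -5.22 to 5.14 points (1416039_x_at).

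**Figure D3:**
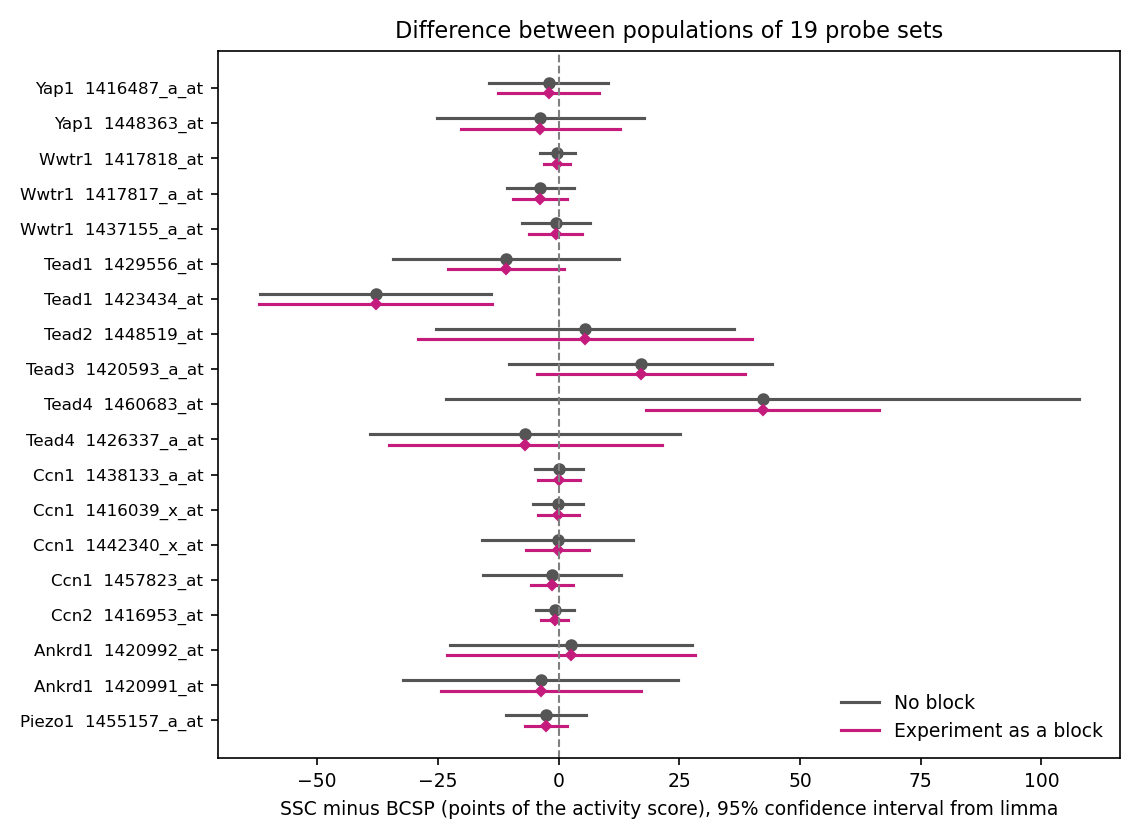
Difference between populations (SSC minus BCSP, points, horizontal axis) of the 19 probe sets, with 95% confidence intervals from limma without a block (circles) and with the experiment as a block (diamonds). The intervals of Tead1 1423434_at lie below 0 in both fits, and that of Tead4 1460683_at lies above 0 with the block alone.

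Upstream of Yap and Taz, 31 genes of Hippo kinases, scaffolds and regulators were measured. Of these, 15 were above 0 on all 8 arrays (25.0% of all genes) and 5 on none (43.5%). Their median was 25.8, against -18.4 for all genes. The highest were Limd1, a scaffold that restrains Lats (89.0 over the 8 arrays), Lats2, a Lats kinase (86.1), and Wwc2, an activator of Lats (81.4). The lowest were Scrib, a polarity scaffold (-89.5), Vgll2, a Tead cofactor of muscle (-60.7), and Taok2, a kinase above the cascade (-44.8). The kinase Lats1 was above 0 on all 8 arrays by its lead probe set, at 38.5 to 90.6, and its second probe set on none. Of 6 Lats2 probe sets 3 were above 0 on all 8 arrays and 2 on none, and of 5 Wwc2 probe sets 3 and 1. Of other genes of the cascade, the Mst kinase Stk4 averaged -12.1 and Nf2 -32.3, each above 0 on 1 array. Sav1 averaged 16.4 (above 0 on 6 arrays), Mob1a 49.1 (on all 8) and Mob1b -0.96 (on 4). Stk3 had no probe set of its own. None of the 31 passed limma between the populations in either direction, and none had an unadjusted p under 0.05 without the block. The smallest were those of Dlg5, a polarity scaffold (67.1 ± 4.88 in SSCs and 26.0 ± 62.3 in BCSPs, SD, n = 4, limma adjusted p = 1), and Fat1, an atypical cadherin (77.6 ± 8.34 and 84.7 ± 6.68, limma adjusted p = 1). Fat1 was lower in SSCs in 4 of 4 experiments and had an unadjusted p = 0.0306 with the block (limma adjusted p = 0.933). The wide spread of Dlg5 came from the BCSP arrays of experiments 2 and 4, at 1.16 and -49.7.

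Of 19 other target genes of Yap and Taz, 10 were above 0 on all 8 arrays (25.0% of all genes) and 5 on none (43.5%). The other 4 were above 0 on some, and the median was 36.1. Amotl2, Lats2 and Ptpn14 also stand in the list before. At the top were Ccdc80, a matrix protein (99.99), Nt5e, the ectonucleotidase CD73 (99.2), and Tgfb2, a TGF-beta ligand (95.6). At the bottom were Nuak2, a kinase of the AMPK family (-66.2), Dock5, an exchange factor for Rac (-65.1), and the receptor kinase Axl (-60.9). None passed limma in either direction. Igfbp3, a binding protein for insulin-like growth factors, was the only one with an unadjusted p under 0.05 without the block. With the block Foxf2, a forkhead factor, was past it too (limma unadjusted p = 0.0186, adjusted p = 0.933). Of all probe sets, 1.22% were past it toward BCSPs without the block and 2.74% with it. Igfbp3 scored 45.5, 30.5, 31.0 and 9.66 in SSCs and 43.5, 78.7, 74.4 and 44.3 in BCSPs. The populations overlap through experiment 1, the only one in which the SSC array was not the lower (difference -31.1 points, limma unadjusted p = 0.0238, adjusted p = 1). Nuak2 came next, at -75.8 ± 9.93 in SSCs and -56.6 ± 10.8 in BCSPs (SD, n = 4, limma adjusted p = 1).

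Among 12 other mechanosensitive channels, 5 were above 0 on all 8 arrays (25.0% of all genes) and 3 on none (43.5%), with a median of 11.9. Trpv4, a calcium channel of chondrocytes, scored 98.2 or above on every array. Trpm7, a channel fused to a kinase, averaged 92.5, and Pkd1, the polycystin of the primary cilium, 82.9. The lowest were Trpv2 (-35.2), the potassium channel Kcnk10 (-33.2) and Tmem63c (-30.8). None passed limma in either direction. The smallest p was that of Tmem63c, an osmosensitive channel, at -52.6 ± 14.4 in SSCs and -9.02 ± 46.5 in BCSPs (SD, n = 4, limma adjusted p = 1). Its BCSP array of experiment 1, at 56.2, was the only array above 0. Pkd1 followed, with a difference of -6.09 points (limma adjusted p = 1).

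Srf and its Mrtf coactivators carry signals from actin to the nucleus, beside Yap and Taz. Of 16 Srf, Mrtf and actomyosin genes, 2 were above 0 on all 8 arrays (25.0% of all genes were) and 7 on none (43.5% of all genes), with a median of -7.45 against -18.4 for all genes. The highest were Cald1, which encodes caldesmon (51.4), the crosslinker Actn1 (45.8) and Srf itself (35.7). The lowest were Mrtfa (-88.1), Tagln (-53.1) and Cnn1 (-38.4), the last pair being genes of contractile smooth muscle. Of 5 Cald1 probe sets 3 were above 0 on all 8 arrays and 1 on none, and of 3 Actn1 probe sets 1 and 2. None of the 16 genes passed limma. The smallest p were those of Mrtfa (difference 7.82 points, limma adjusted p = 1) and Cnn1 (11.3 points, limma adjusted p = 1).

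**Figure D4:**
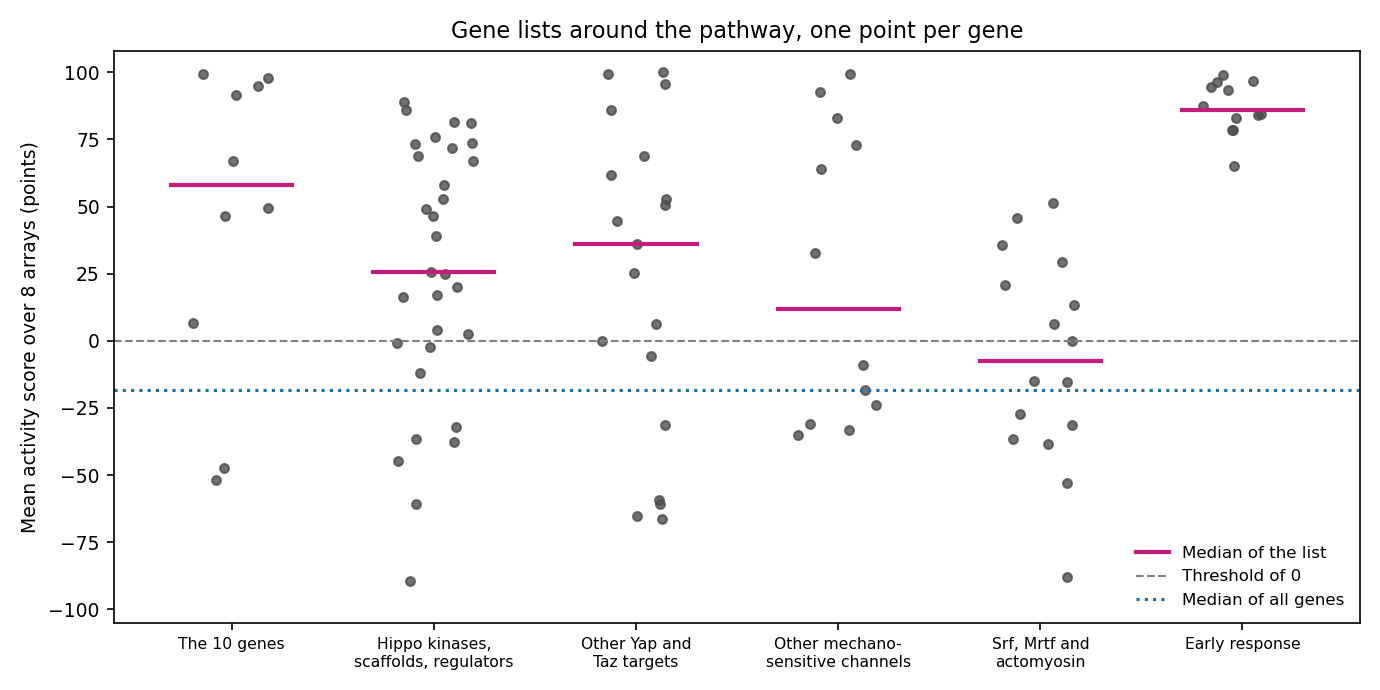
Mean activity score over the 8 arrays (points, vertical axis) of the lead probe set of each gene in 6 lists, one point per gene. Bars mark list medians, from -7.45 for the Srf, Mrtf and actomyosin genes to 86.0 for the early response genes; the dotted line marks the median of all genes, -18.4.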

How the data were processed

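RNA of sorted cells was amplified in 2 rounds and run on Affymetrix arrays by the authors, who set each array against the Common Reference of Gene Expression Commons. What they deposited is a score from -100.03 to 100 for 45101 probe sets on 8 arrays. The summarisation of probes was not given in the sources used here. Amplification favours the 3′ end of transcripts, so probe sets of a gene can differ.

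Symbols came from the annotation of the platform, with 1 symbol for 34945 probe sets besides controls. The 932 with several were not named, and 64 controls were left out. The score was fitted over 45037 probe sets in R 4.3.3 by limma 3.58.1 (lmFit and eBayes, the latter with a variance trend, and Benjamini-Hochberg adjustment at 0.05), without a block as in the unpaired test of the methods. Experiments were compared by a moderated F with population as the other term. On simulated scores, the fit recovered 1 of 200 probe sets shifted by 20 points, 12 of 200 shifted by 40 and 112 of 200 shifted by 80. The simulated scores had no limit at either end and no effect of the experiment. These rates therefore do not describe probe sets near the limit of the score.

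The genes and lists were chosen with earlier results of these data known. Named list genes are the 3 highest, the 3 lowest and the 2 with the smallest p of each list. Lats1, Stk4, Nf2, Sav1, Mob1a, Mob1b and Ajuba were chosen after their values were seen. Listed genes with no probe set of their own were not analysed here, and 1 further list is not reported here. For 1 BCSP array title and description conflict on its number; it was taken as BCSP 2 by its description and experiment. Deviations of the arrays of an experiment from their group means correlated at 0.394, 0.164, 0.605 and 0.173. Between arrays of different numbers the highest correlation was 0.140, for the SSC array of experiment 2, so the margin there was small. The experiment numbers, which come from the labels, were taken to pair the arrays. Whether the arrays of a population come from separate animals is not in the labels, and p-values measure the spread between these arrays.

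Alternatives were the block, quantile normalization, centring, a filter on low scores, 1 probe set or the mean per gene, inverse normal scores, array weights, the methods' t-test, eBayes without its trend, and leaving out arrays or experiments.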

Additional observations from a re-analysis of the deposited data

Results flagged for a closer look

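In 7 of 38 groups of 4 arrays, 1 array stood apart from the other 3. Its gap over the range exceeded Dixon's critical value at 95%. For independent groups of normal values chance gives this in about 1 in 20. These scores level off at both ends, probe sets of a gene are not independent, and no share over all probe sets is given. The count of 7 is therefore a description only. The 7 cases lay on arrays of all 4 experiments. For Yap1 the SSC array of experiment 4 scored 80.1, with the next at 62.2. For the second Tead1 probe set the SSC array of experiment 4 scored -50.4, with the next at -72.5, and still lay below every BCSP array. For Tead2 the lowest SSC array, in experiment 3, scored -79.2 with the next at -36.4, and the lowest BCSP array, in experiment 1, -71.9 with the next at -44.4. For Ccn2 the BCSP array of experiment 2 scored 96.9 with the next at 98.7, a gap of little size. For Ankrd1 the SSC array of experiment 1 scored -87.1 by 1420991_at with the next at -60.3, and the BCSP array of experiment 3 scored -79.3 by 1420992_at with the next at -47.7.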

How the results depend on the processing

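No probe set was called between the populations under any of the 28 alternatives. At an unadjusted p under 0.05 there were 1081 of 45037 without any change, 1094 of 45032 by the methods' t-test and 2268 of 45037 with the replicate block. The fewest, 166, came from the filter above 0 on 4 arrays, which tested only 13460. The most, 2728 of 45037, came from the block without both arrays of experiment 1. The block changed no call. The count of genes above 0 on all 8 arrays was 7, and 6 where every probe set of a gene, or their median, had to be above 0. The number of probe sets that differed between experiments was not stable. It was 448, and 1147 after quantile normalization, 1418 after centring, 1668 with the filter above 0 on 4 arrays, 1020 on inverse normal scores, and 0 without the trend or without both arrays of experiment 1, 2, 3 or 4; with fewer arrays the test has fewer degrees of freedom, and the other causes were not tested. For the second Tead1 probe set, chosen for not overlapping, so that these p are no evidence, the exact p of 0.0286 was 0.125 for exchanges within experiments (replicate block), 0.0286 to 0.0571 without a single array and 0.1 without experiment 1, 2, 3 or 4, the smallest that 3 against 3 allow, while the difference stayed between -43.8 and -30.0 points. Ccn2, both Tead1 probe sets, Tead3 and Tead4 kept their direction under every alternative but not their size. Without a single array the difference ran from -16.6 to -2.37 points for the lead Tead1 probe set, 7.54 to 26.7 for Tead3, 26.2 to 61.4 for Tead4 and -1.24 to -0.311 for Ccn2, and Tead4 gave 17.7 points as the mean of its probe sets. Differences near 0 changed sign without a call. Yap1 gave 0.0112 on inverse normal scores, with or without the block, and 0.193 points without experiment 3, with or without the block. Wwtr1 gave 0.193 points after centring. Tead2 gave -6.56 points without experiment 1, and Ccn1 gave -0.391 points as the mean of its probe sets and -1.72 points without experiment 4. Ankrd1 gave -0.550 points as that mean and -6.77 points without experiment 3. Without a single array the differences ran from -6.86 to 0.146 points for Yap1, -1.72 to 17.0 for Tead2, -0.963 to 0.920 for Ccn1, -6.14 to 6.97 for Ankrd1 and -4.46 to 0.527 for Piezo1.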

Other observations

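The following genes near the pathway were chosen after their values were seen. Piezo2, the stretch-gated channel related to Piezo1, scored 90.1, -15.3, 66.5 and 17.6 on the SSC arrays of experiments 1 to 4 and 59.4, -59.2, 73.9 and 29.5 on the BCSP arrays, so that experiment 2 was below 0 in both populations. Foxf2 scored -10.7, -16.8, -22.2 and -43.8 in SSCs and 22.0, 51.5, 55.9 and -36.0 in BCSPs. Foxf2 was lower in SSCs in 4 of 4 experiments, as were 7.24% of all probe sets. It overlapped through the BCSP array of experiment 4 and did not pass limma (adjusted p = 1 without the block).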
